A study of Homo sapiens with 5 samples.

Results

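The HOX genes of the 4 human clusters were taken as every symbol made of HOX, a cluster letter from A to D and a number, present in all 5 FPKM tables. The rule gave 34 genes of 24544 symbols, each from 1 row: 9 in HOXA, 10 in HOXB, 6 in HOXC and 9 in HOXD. Another 5 HOX genes stood in 2 rows that name several genes at once, HOXA10 with HOXA9 and HOXC4 with HOXC5 and HOXC6, and were described apart. RNA-seq covered 2 established human hepatocellular carcinoma lines in which the embryonic transcription factor SALL4, a zinc finger protein, had been raised or lowered. In SNU-387 the groups were empty vector, SALL4A and SALL4B, where A and B are 2 isoforms of the protein. SNU-398 cells were called untreated in one sample and carried a knockdown aimed at both isoforms in the other. The treatment field gives lentivirus and puromycin for all 5 samples, the untreated one included, and the cell line field of both SNU-398 samples reads SNU-387, so groups followed the titles. Each group held 1 library, so no difference below could be set against the spread between replicates, and no test was possible.

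HOX genes encode homeodomain transcription factors that give cells their place along the body axis. Within a cluster the genes stand in the order of their numbers: low numbers at the 3′ end are used early and towards the head, high numbers at the 5′ end late and towards the tail. Retinoic acid opens clusters from the 3′ end, trithorax proteins keep active genes on, polycomb proteins keep silent ones off, and PBX and MEIS proteins bind DNA together with HOX proteins. In GENCODE 29 (GRCh38) HOXA lies on chromosome 7 from 27092993 to 27200106 and HOXB on chromosome 17 from 48528526 to 48729178, both on the minus strand. HOXC lies on chromosome 12 from 53938765 to 54056030 and HOXD on chromosome 2 from 176092891 to 176190907, both on the plus strand. In that annotation 17 of the 34 genes overlap another HOX gene, so reads there could be shared between neighbours.

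The promoter table of RefSeq (GRCh38.p14) held 16 of the 34 genes, and 5 of its stretches are shown because their genes mark the contrasts in SNU-398. HOXD13 and HOXD10 were among the highest transcripts and HOXD4 was almost unread, while HOXA2 was higher and HOXA7 lower after knockdown. Each is the 250 bases before the annotated start, 5′ to 3′ on the gene's strand, with CG dinucleotides in capitals because CG-rich promoters are a mark of developmental genes.
HOXD13 (chr2:176092471-176092720, plus strand): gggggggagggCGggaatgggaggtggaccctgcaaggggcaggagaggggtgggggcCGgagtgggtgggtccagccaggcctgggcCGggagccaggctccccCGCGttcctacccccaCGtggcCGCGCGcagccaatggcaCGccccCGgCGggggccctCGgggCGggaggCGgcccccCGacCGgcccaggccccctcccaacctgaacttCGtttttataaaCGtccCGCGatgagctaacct
HOXD10 (chr2:176116528-176116777, plus strand): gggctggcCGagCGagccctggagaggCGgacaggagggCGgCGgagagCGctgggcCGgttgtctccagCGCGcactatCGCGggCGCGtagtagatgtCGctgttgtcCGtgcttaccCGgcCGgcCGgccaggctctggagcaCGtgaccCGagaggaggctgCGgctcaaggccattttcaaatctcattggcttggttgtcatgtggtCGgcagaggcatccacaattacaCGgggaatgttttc
HOXD4 (chr2:176151300-176151549, plus strand): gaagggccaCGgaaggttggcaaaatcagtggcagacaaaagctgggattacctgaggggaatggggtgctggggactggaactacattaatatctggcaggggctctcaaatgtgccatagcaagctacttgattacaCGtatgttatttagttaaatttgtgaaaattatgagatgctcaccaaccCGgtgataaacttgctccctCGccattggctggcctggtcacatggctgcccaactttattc
HOXA2 (chr7:27102684-27102933, minus strand): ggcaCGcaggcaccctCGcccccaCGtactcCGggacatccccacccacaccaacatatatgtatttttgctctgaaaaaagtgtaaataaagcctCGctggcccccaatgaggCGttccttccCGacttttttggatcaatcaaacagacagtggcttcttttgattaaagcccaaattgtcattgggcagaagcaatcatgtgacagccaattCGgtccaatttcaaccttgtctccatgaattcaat
HOXA7 (chr7:27156676-27156925, minus strand): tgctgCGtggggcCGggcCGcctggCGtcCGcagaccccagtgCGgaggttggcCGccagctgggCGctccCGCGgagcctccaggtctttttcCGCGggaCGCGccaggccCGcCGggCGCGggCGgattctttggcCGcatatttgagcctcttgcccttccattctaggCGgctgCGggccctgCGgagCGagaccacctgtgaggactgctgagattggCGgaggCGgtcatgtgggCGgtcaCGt

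The number of CG dinucleotides was 21 for HOXD13, 23 for HOXD10, 28 for HOXA7, 8 for HOXA2 and 4 for HOXD4, against a median of 11 over 35116 promoter windows of the same length. Of these windows, 30.2% had as many as HOXD13, 15.9% as many as HOXA7, 56.3% as many as HOXA2 and 70.7% as many as HOXD4. A low count stood both before a gene that was almost unread (HOXD4) and before one that was read (HOXA2). High counts also stood before genes under 1 FPKM in untreated SNU-398, in windows not shown. Among these were HOXD3 (21 CG, 0.121 FPKM) and HOXD1 (31 CG, 0.594 FPKM). Motifs were searched by their letters on both strands. TATAAA, the TATA box, was found before HOXD13 and in 10.7% of all windows, and ATATT, taken as an example of the short A/T-rich words that SALL4 is known to bind, before HOXD4 and HOXA7 and in 21.4% of all windows. TGATNNAT, a composite site of PBX and HOX proteins, was found before HOXA2 and in 6.47% of all windows. No window shown held more than 1 of the 3 motifs, and the 2 TATAAA matches before HOXD13, 1 on each strand, overlap each other. A match of letters describes the sequence and does not show a bound site.

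Depth, estimated from the steps between the lowest FPKM values, ranged from 7.14 M fragments after knockdown to 23.6 M with SALL4A, so that a value of 1 FPKM for a 2 kb transcript stood for about 14.3 to 47.2 fragments. A value of 0 then allows 3 fragments, or 0.0636 FPKM in the deepest library to 0.21 FPKM in the shallowest, for such a transcript. From 2 to 5 of 79 ribosomal protein symbols were also listed at 0, so a listed 0 can be a failed estimate. SALL4 itself stood at 0.117, 23.1 and 10.4 FPKM in the SNU-387 libraries with empty vector, SALL4A and SALL4B, and at 39.4 and 7.45 FPKM in untreated and knockdown SNU-398 cells. Small nucleolar RNAs took 37.1% of summed FPKM after knockdown and 1.04% in untreated cells. Hepatocyte markers were low in most libraries: albumin (ALB) reached at most 1.28 FPKM and HNF4A at most 0.287 FPKM in any library, while SERPINA1 was at 5.78, 4.66 and 25.3 FPKM with empty vector, SALL4A and SALL4B, and APOA1 at 14.9 FPKM with SALL4B. The summed level of the list was 6.06 to 40.9 FPKM in SNU-387 and 1.90 to 2.15 FPKM in SNU-398. Of 10 hepatocyte markers 0 to 2 were at 1 FPKM or more in each library, against 6 to 11 of 11 fibroblast or stellate cell markers, whose summed level was 503 to 1126 FPKM in SNU-387 and 250.3 to 261.8 FPKM in SNU-398. KRT8 and KRT18, epithelial keratin genes, were at 350 and 318 FPKM with empty vector and at 0.579 and 0.034 FPKM in untreated SNU-398. CDH1, the other gene of the epithelial list, did not follow them, listed at 0 with empty vector and at 0.159 FPKM in untreated SNU-398. The part of these differences in the HOX levels was not tested. In bulk RNA, fewer cells with a transcript and less of it per cell cannot be told apart.

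HOX transcripts were abundant in SNU-398 and scarce in SNU-387. In untreated SNU-398 cells 29 of 34 genes were at 1 FPKM or more, where 51.4% of all symbols were. With empty vector in SNU-387 only 4 of 34 were, where 49% of all symbols were. The other SNU-387 libraries had 5 (SALL4A, all symbols 49%) and 0 (SALL4B, all symbols 48.6%), and the knockdown library 29 (all symbols 54.2%). No source used here says whether the libraries of both lines were normalised together, so levels across lines carry that limit. In the pair of untreated SNU-398 and empty vector, 29 HOX genes reached 1 FPKM and all 29 were at least 2-fold higher in SNU-398, beside 23.7% of 13996 symbols. Of these 29, 25 passed only through the SNU-398 library, so their number supports nothing beyond the levels themselves.

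**Figure D1:**
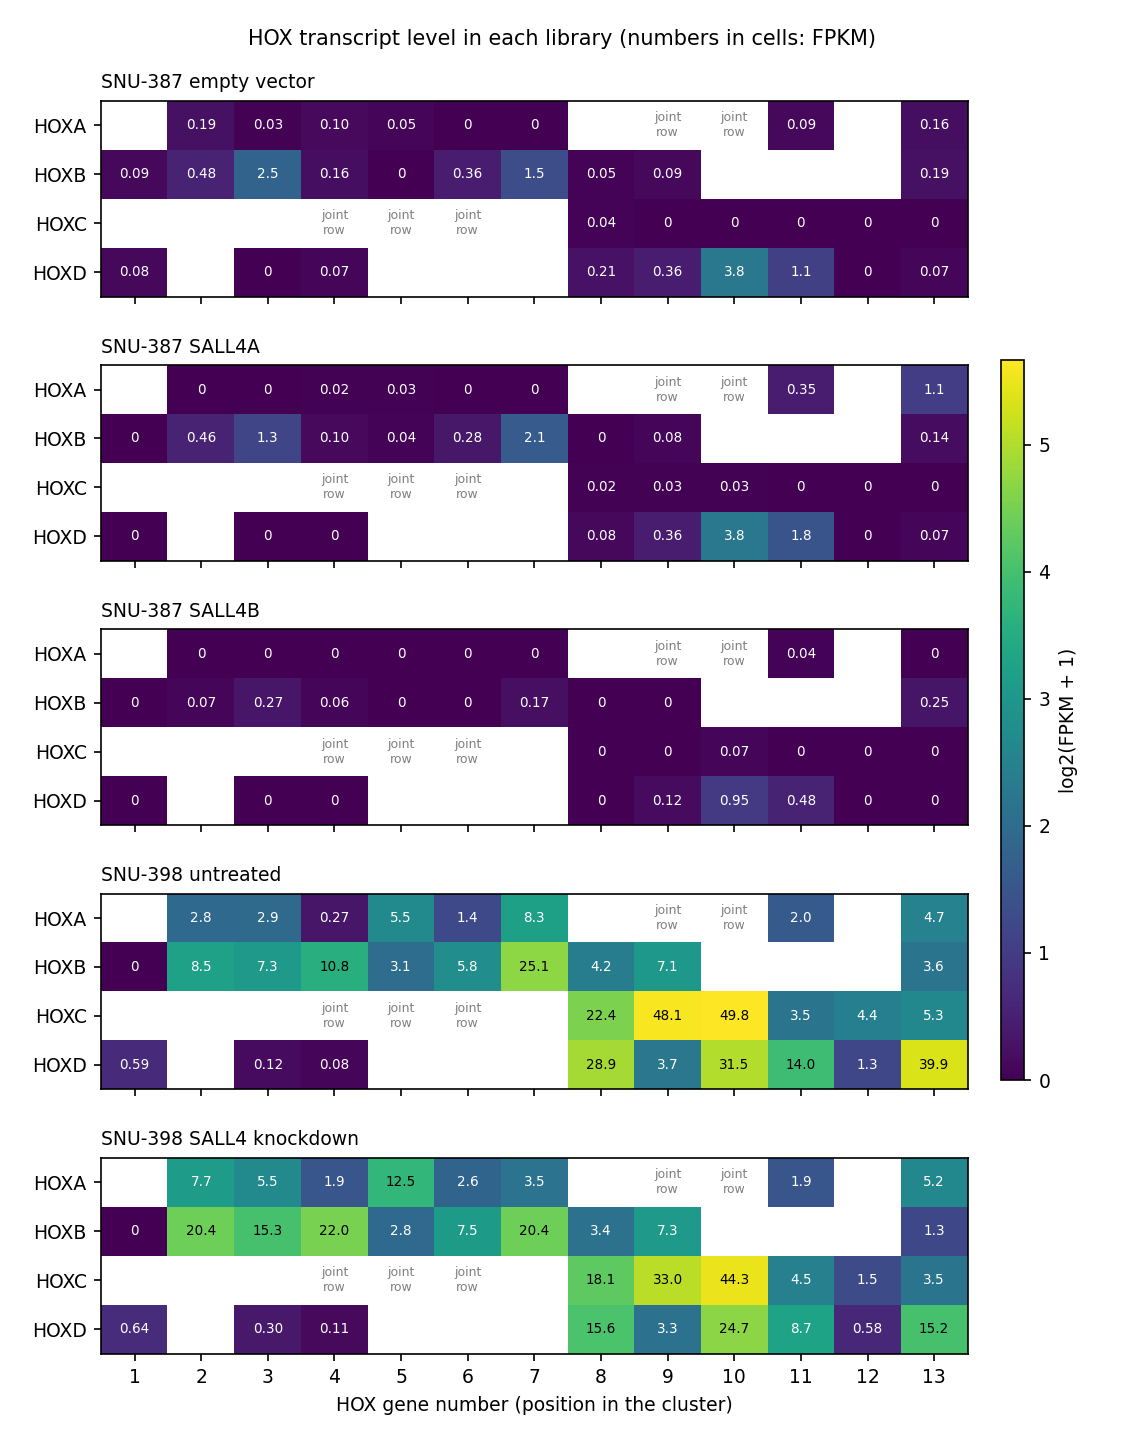
Level of each HOX gene in each of the 5 libraries, 1 panel per library, with clusters as rows and gene numbers as columns. Colour gives log2(FPKM + 1), the figures in the cells give FPKM, and joint row marks genes that share a row; blank cells hold no gene or one not shown, and the SNU-398 panels are filled along all 4 clusters, with HOXC10 highest at 49.8 FPKM in untreated cells, while HOXD10 at 3.84 FPKM is the highest value in SNU-387.

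Summed over its genes, HOXC differed most between the lines. HOXC was at 0.0363 and 133 FPKM with empty vector and in untreated SNU-398, HOXD at 5.75 and 120.1 FPKM, HOXB at 5.41 and 75.4 FPKM, and HOXA at 0.764 and 34.3 FPKM. The order of clusters in untreated SNU-398 was therefore HOXC, HOXD, HOXB, HOXA. The highest single genes were HOXC10 (49.8 FPKM), HOXC9 (48.1), HOXD13 (39.9), HOXD10 (31.5), HOXD8 (28.9), HOXB7 (25.1) and HOXC8 (22.4). By 95% exact counting intervals of the level, the neighbours HOXC10 (47.2 to 52.6) and HOXC9 (45.7 to 50.6) overlapped, as did HOXD10 (29.8 to 33.2) and HOXD8 (27.0 to 30.8), and HOXB7 (23.3 to 26.9) and HOXC8 (20.9 to 23.9), while HOXD13 (38.1 to 41.7) overlapped neither neighbour.

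HOXC covers only the middle and 5′ genes in mammals, those of trunk and limb. All 6 measured genes were read in SNU-398 and the highest value in any SNU-387 library was 0.0701 FPKM. HOXC8, a trunk gene, was at 0.0363, 0.0185 and 0 FPKM in the SNU-387 libraries with empty vector, SALL4A and SALL4B, and at 22.4 and 18.1 FPKM in untreated and knockdown SNU-398. HOXC9, in the same order, was at 0, 0.0283, 0, 48.1 and 33.0 FPKM. HOXC10, a hindlimb gene, was at 0, 0.0263, 0.0701, 49.8 and 44.3 FPKM. The 3 lie next to each other and all stood slightly lower after knockdown. The 5′ end was read at a lower level: HOXC11 at 3.52 and 4.52 FPKM, HOXC12 at 4.42 and 1.47 FPKM and HOXC13, known from hair and nail, at 5.28 and 3.51 FPKM in untreated and knockdown cells, and all 3 were listed at 0 in SNU-387. HOXC12 had the largest difference in the cluster, 3.01-fold lower after knockdown (95% counting interval 2.12 to 4.40, from about 315 and 35 fragments). The joint row of HOXC4, HOXC5 and HOXC6 followed the cluster, with 50.6 FPKM before and 34.99 FPKM after knockdown and at most 0.102 FPKM in SNU-387.

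HOXD was divided in untreated SNU-398 between 3′ genes under 1 FPKM and 5′ genes above it. HOXD1, HOXD3 and HOXD4 were at 0.594, 0.121 and 0.0754 FPKM in untreated cells and at 0.637, 0.301 and 0.112 FPKM after knockdown, all under 1 FPKM. HOXD8 to HOXD13, the genes used in trunk, limb and genital tubercle, were all above 1 FPKM in untreated cells. The 95% counting intervals of HOXD1 (0.384 to 0.877 FPKM) and HOXD12 (0.873 to 1.85 FPKM) overlapped there. HOXD13, the last gene of the cluster and a gene of digits, was at 0.0713, 0.0725 and 0 FPKM in SNU-387 with empty vector, SALL4A and SALL4B, and at 39.9 and 15.2 FPKM in untreated and knockdown SNU-398. It was 2.63-fold lower after knockdown (95% counting interval 2.30 to 3.02). HOXD8 was at 28.9 and 15.6 FPKM, HOXD10 at 31.5 and 24.7 FPKM, and HOXD11 at 14.03 and 8.74 FPKM. All 4 were lower in the knockdown library. HOXD9 was at 3.75 and 3.35 FPKM, a difference within its counting interval, and HOXD12 was at 1.29 and 0.58 FPKM on about 30 and 4 fragments. HOXD10 and HOXD11 were also among the few HOX genes above 1 FPKM in SNU-387.

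HOXA was read at low to moderate levels along most of its length in SNU-398. HOXA2, a gene of the hindbrain and its neural crest, was at 2.82 and 7.69 FPKM in untreated and knockdown cells, and HOXA3, needed for thymus and parathyroid, at 2.90 and 5.50 FPKM. HOXA4 was at 0.275 and 1.88 FPKM. These 3 genes towards the 3′ end were all higher after knockdown, HOXA2 by 2.73-fold (95% counting interval 2.07 to 3.63) and HOXA4 by 6.85-fold (2.99 to 15.6) on about 22 and 10 fragments. HOXA5, a gene of lung and trunk, was at 5.49 and 12.5 FPKM, 2.28-fold higher after knockdown (1.83 to 2.84), and HOXA6 at 1.38 and 2.56 FPKM. HOXA7, the next gene, went the other way, at 8.28 and 3.46 FPKM, 2.39-fold lower (1.66 to 3.60). HOXA11, of limb and uterus, was at 2.03 and 1.86 FPKM and HOXA13 at 4.70 and 5.25 FPKM, both within their counting intervals. The joint row of HOXA10 and HOXA9 was listed at 0 in untreated cells and stood at 0.131 FPKM after knockdown, between read neighbours on either side. Since a listed 0 can be a failed estimate, that gap was not taken as a measured absence. In SNU-387 the highest HOXA value other than that of HOXA13 was 0.347 FPKM, for HOXA11 with SALL4A.

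HOXB genes other than HOXB1 ranged from 3.07 FPKM (HOXB5) to 25.1 FPKM (HOXB7) in untreated SNU-398. HOXB1, a gene of the fourth hindbrain segment, was listed at 0 in both SNU-398 libraries and was the only member so listed there. HOXB2 was at 8.53 and 20.4 FPKM in untreated and knockdown cells, 2.40-fold higher (95% counting interval 2.01 to 2.87). HOXB3 was at 7.30 and 15.3 FPKM and HOXB4, known for expanding blood stem cells, at 10.8 and 22.0 FPKM, 2.09-fold (1.72 to 2.53) and 2.04-fold (1.83 to 2.27) higher. The log2 ratios of HOXB3 and HOXB4 with a pseudocount were 0.97 and 0.96, just under the 2-fold line. From HOXB5 on the differences were small: HOXB5 at 3.07 and 2.81 FPKM, HOXB6 at 5.82 and 7.53 FPKM, HOXB7 at 25.1 and 20.4 FPKM, HOXB8 at 4.196 and 3.40 FPKM and HOXB9 at 7.09 and 7.25 FPKM. HOXB13, the prostate and hindgut gene set apart at the 5′ end, was at 3.55 and 1.34 FPKM, 2.64-fold lower (1.85 to 3.96), with a log2 ratio of -0.96.

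**Figure D2:**
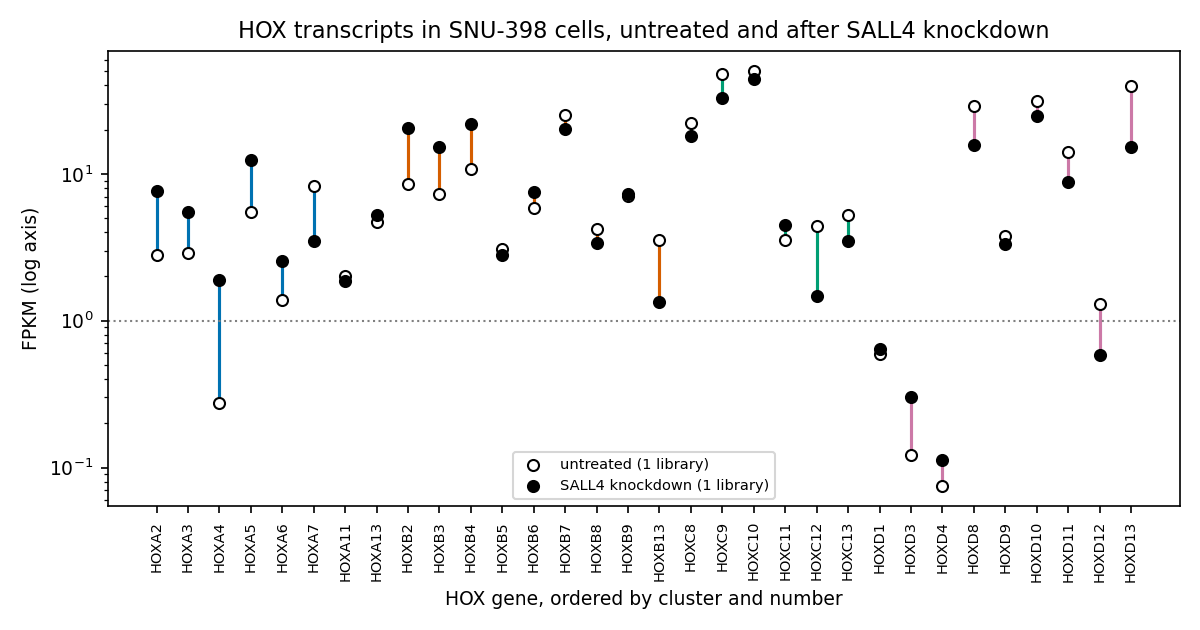
FPKM on a log axis of HOX genes above 0 in both SNU-398 libraries, open points for the untreated library and filled points for the knockdown library, with lines coloured by cluster; HOXB1, listed at 0 in both, is not drawn. Filled points lie above open ones from HOXA2 to HOXA6 and from HOXB2 to HOXB4, and below them for HOXD8 to HOXD13.

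Knockdown against untreated SNU-398 cells was the comparison with most HOX genes to read. Ratios were log2 of (FPKM + 1) over (FPKM + 1), a scale that understates low genes, for the 30 members that reached 1 FPKM in either library, 2 of them under it in the other. At least 2-fold higher were 4 of 30 (HOXA2, HOXA4, HOXA5, HOXB2), beside 9.73% of 13716 symbols. At least 2-fold lower were 3 (HOXA7, HOXC12, HOXD13), beside 8.13%. At 13.3% and 10% of the members, these shares lay near those of all symbols, and the median of the members, -0.11, lay near that of all symbols, -0.01. HOXD13 alone, at -1.34, lay outside the 5th to 95th percentile of all symbols, -1.17 to 1.33. With each library scaled to a common total, which moved the median of all symbols to -0.62, the counts became 0 higher and 8 lower. The median of the members was then -0.63, and higher genes made up 11.7% of all symbols called, against 54.5% as deposited. A common total that left out small RNAs gave 5 higher, 3 lower and a median of the members of -0.09. A common upper quartile gave 4 higher, 3 lower and a median of -0.11.

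The ratios were ordered by position in the cluster. The 7 measured genes numbered 1 to 4 all had ratios above 0, with a median of 0.97, and 6 of 7 did under a common total. Genes numbered 5 to 8 had a median of -0.24, with 3 of 9 above 0. The median of genes numbered 9 to 13 was -0.41, with 11 of 14 below 0 and all 14 under a common total. A common total moved the median of all symbols to -0.62, which by itself puts more genes below 0. Under it the medians of the classes, in the same order, were 0.36, -0.78 and -0.93. With a common total that left out small RNAs they were 1.01, -0.23 and -0.39, and the class counts were those as deposited. These classes were drawn after the values were seen. Across the 30 genes the ratio fell with the gene number, with Pearson's r = -0.76 and Spearman's rho = -0.73. This correlation is across genes of 1 pair of libraries, and genes of a cluster share regulatory elements and overlapping reads, so it is a description. By cluster, Pearson's r was -0.52 for 9 HOXA genes, -0.91 for 9 HOXB genes, -0.26 for 6 HOXC genes and -0.50 for 6 HOXD genes. The clusters also differed as wholes. Of the measured genes, 7 of 9 were above 0 in HOXA and 5 of 9 in HOXB, falling to 5 and 3 under a common total, while 5 of 6 HOXC genes and 6 of 6 HOXD genes were below 0 as deposited and all 12 were under a common total. The counts by cluster under a common total carry the same shift of all symbols. HOXC and HOXD have no measured gene numbered 1 to 4 above 1 FPKM, so cluster and position cannot be fully told apart. Among the 30 genes the ratio had r = 0.02 with transcript length, -0.06 with GC content and -0.15 with mean level. Depth and the small nucleolar RNA share differed between the libraries as given above, and the summed level of 3 epithelial markers was 0.772 and 8.89 FPKM in untreated and knockdown cells; the part of these in the pattern was not tested.

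**Figure D3:**
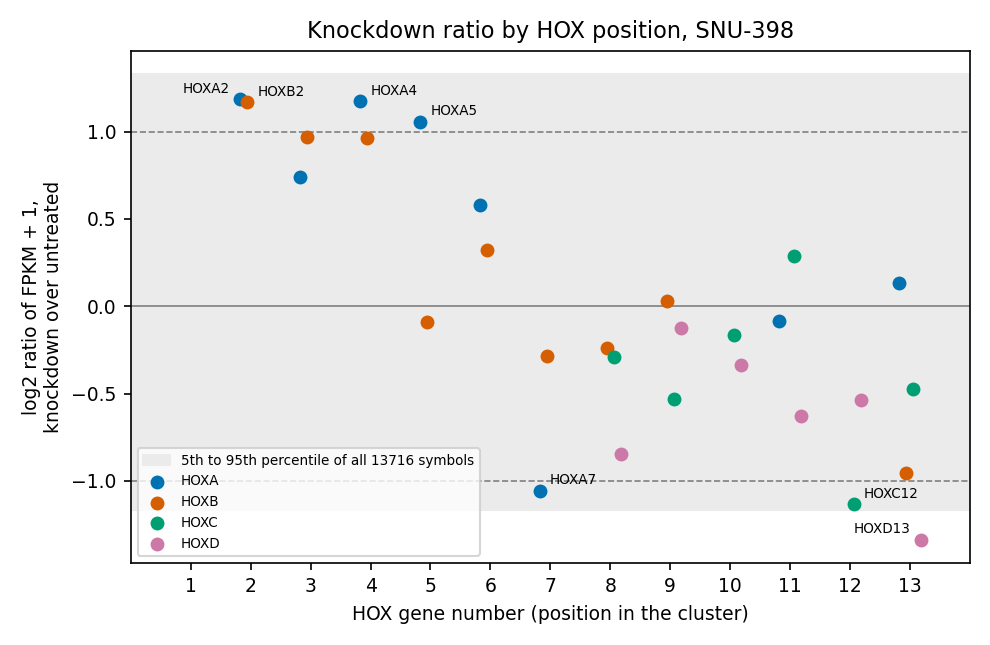
Log2 ratio of FPKM + 1, knockdown over untreated SNU-398, against HOX gene number for 29 of the 30 genes compared, coloured by cluster and shifted slightly sideways. Dashed lines mark 2-fold and the grey band the 5th to 95th percentile of 13716 symbols; the 6 plotted genes numbered 2 to 4 lie above 0, also with a common total, and most of those numbered 9 to 13 below.

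Overexpression in SNU-387 bore on 5 HOX genes, those at 1 FPKM or more in at least 1 of its libraries. HOXD10 was at 3.84 FPKM with empty vector, 3.81 with SALL4A and 0.952 with SALL4B. HOXB3 was at 2.47, 1.27 and 0.272 FPKM, and HOXB7, a gene often raised in tumours, at 1.53, 2.10 and 0.173 FPKM. HOXD11 was at 1.12, 1.77 and 0.48 FPKM. These 4 were lowest with SALL4B. HOXA13, a gene of limb ends and hindgut, was at 0.164 and 1.05 FPKM with empty vector and SALL4A and listed at 0 with SALL4B.

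With SALL4A against empty vector, none of the 5 was at 2-fold or more on the log2(FPKM + 1) scale, beside 2.27% of 12441 symbols higher and 3.24% lower. The ratios ran from -0.61 for HOXB3 to 0.82 for HOXA13. HOXA13 was 6.41-fold higher without a pseudocount (95% counting interval 3.30 to 13.4, from about 125 and 10 fragments), and a pseudocount of 0.1 or 0.5 put it past 2-fold. HOXB3 was 1.95-fold lower (1.29 to 2.95). HOXD10 differed by 0.992-fold (0.764 to 1.29). HOXB7, at 1.38-fold (0.853 to 2.26), and HOXD11, at 1.58-fold (0.96 to 2.81), had intervals that include 1.

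With SALL4B, each of the 4 HOX genes at 1 FPKM with empty vector had a lower value. HOXB3 was 9.07-fold lower (95% counting interval 3.38 to 35.2), HOXB7 8.84-fold (2.35 to 81.9) on about 25 and 2 fragments, and HOXD10 4.04-fold (2.38 to 7.21). On the pseudocount scale these 3 were at -1.45, -1.11 and -1.31, so 3 of 4 passed 2-fold, beside 4.86% of 12459 symbols lower and 3.13% higher. HOXD11, at -0.52, did not pass, and its fold of 2.33 had an interval of 0.873 to 6.02. All 4 passed the filter only through the empty vector library, which a lower value must follow, so the share supports nothing by itself. The 30 other members were under 1 FPKM in both libraries. The SALL4B library also listed the most symbols at 0, 32.9% of all against 20.1% with empty vector and 27.1% with SALL4A, and 24, 10 and 13 of the 34 HOX genes. The summed level of 11 fibroblast or stellate markers was 1126 FPKM with empty vector, 503 with SALL4A and 649 with SALL4B. The part of these in the HOX values was not tested.

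Set directly against SALL4B, SALL4A had higher values of all 5 genes, and 3 passed 2-fold: HOXB7 (1.40), HOXD10 (1.30) and HOXA13 (1.04), beside 3.82% of 12424 symbols higher and 3.39% lower. All 5 were under 1 FPKM with SALL4B, so they entered by their SALL4A value and had to be higher there, and neither count supports anything by itself. HOXD10 was 4.004-fold higher (2.42 to 6.99) and HOXB7 12.2-fold (3.42 to 108.3). HOXB3 and HOXD11 were at 0.83 and 0.90, 4.65-fold (1.74 to 18.02) and 3.68-fold (1.58 to 8.94) without a pseudocount. The comparisons with empty vector share that library, and SALL4B enters 2 of the 3, so they are not independent.

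**Figure D4:**
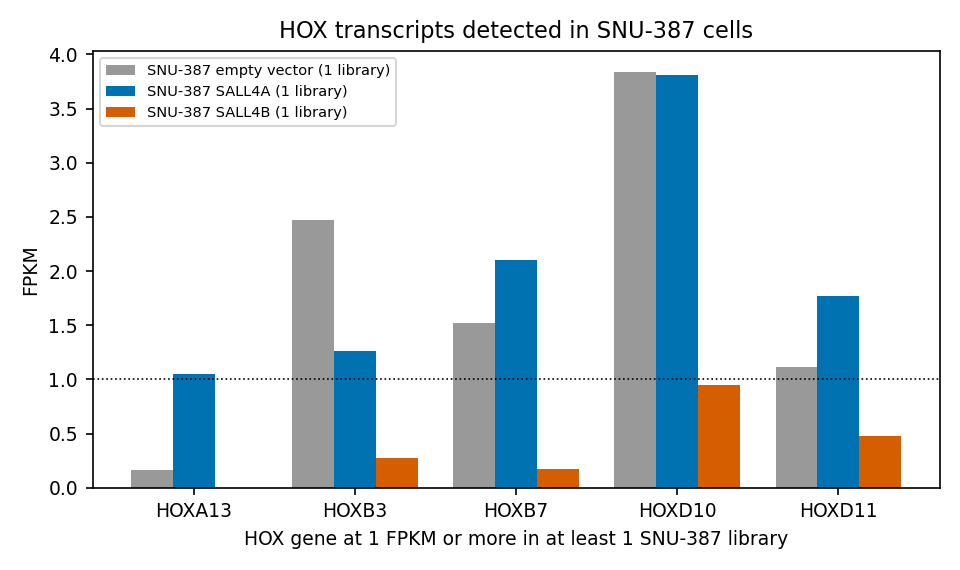
FPKM of the 5 HOX genes at 1 FPKM or more in at least 1 SNU-387 library, as bars from 0 for empty vector, SALL4A and SALL4B, 1 library each, with a dotted line at 1 FPKM. The SALL4B bar is the lowest for every gene and absent for HOXA13, which is listed at 0.

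Some noncoding RNAs of the clusters were read in SNU-398. Of 30 listed, 21 had a row. In untreated SNU-398, 9 of the 21 were at 1 FPKM or more, where 51.4% of all symbols were. None reached 1 FPKM in SNU-387. HOTAIRM1, transcribed at the 3′ end of HOXA, was at 5.17 and 12.4 FPKM in untreated and knockdown SNU-398 (log2 ratio 1.11), higher like the HOXA genes next to it. HOTAIR, the HOXC RNA known for binding polycomb proteins, was at 5.69 and 3.57 FPKM (-0.55). HAGLR, of the HOXD cluster, was at 3.54 and 1.28 FPKM (-0.99). HOTTIP, at the 5′ end of HOXA, stayed under 1 FPKM in every library. HOXC-AS3 was at 9.71 and 6.34 FPKM and HOXB-AS1 at 5.83 and 5.35 FPKM. No source used here says whether counting used strand, so antisense RNAs cannot be told apart from the HOX genes they overlap. Of 11 tested after knockdown, 2 were at least 2-fold higher (HOTAIRM1 and MIR196A2) and 0 lower, beside 9.73% and 8.13% of all symbols, with a median of 0.14. MIR196A2 and FLJ12825 reached 1 FPKM only in the knockdown library, so they had to be higher there. The count and the median thus rest partly on the filter.

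MIR196A2, a microRNA gene between HOXC10 and HOXC9 (mature 5p arm at 53991762 to 53991783 of chromosome 12, GRCh38.p14), was listed at 0 in 4 libraries and at 30.2 FPKM in the knockdown library. FPKM is very coarse for so short a gene, and a fragment there may belong to the long HOXC transcripts around it, so the value says nothing about the mature microRNA. MIR196A1 in HOXB and MIR196B in HOXA were listed at 0 throughout. Their mature products are shown because microRNAs of this family target HOX messages; capitals mark the seed, bases 2 to 8, which is the same in both.
hsa-miR-196a-5p: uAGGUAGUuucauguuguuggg
hsa-miR-196b-5p: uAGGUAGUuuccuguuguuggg

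Most TALE cofactors, homeodomain proteins that bind with HOX factors, had higher values in SNU-398. Of 9 tested, 6 were at least 2-fold higher in untreated SNU-398 than with empty vector and 1 lower. MEIS2 was at 107 against 2.70 FPKM and MEIS3 at 12.8 against 0.0849 FPKM. Of all symbols 23.7% were higher and 21.4% lower. MEIS3 and PBX4 reached 1 FPKM only in the SNU-398 library of this pair, so they had to be higher there. The count of higher genes thus rests partly on the filter. After knockdown 3 of 9 were at least 2-fold lower, beside 8.13% of all symbols, among them PBX2 at 7.01 against 17.1 FPKM (-1.17) and MEIS3 at 5.69 against 12.8 FPKM (-1.05), while MEIS1 was at 19.8 against 11.2 FPKM (0.77). In SNU-387 none of 7 reached 2-fold with either isoform against empty vector. Of all symbols 2.27% were higher and 3.24% lower with SALL4A, and 3.13% and 4.86% with SALL4B. TGIF1 had the highest level of the list in SNU-387, 39.1, 33.0 and 30.0 FPKM with empty vector, SALL4A and SALL4B.

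Genes of the machinery that keeps HOX clusters on or off were compared from lists. Of 21 trithorax and activator genes tested, 6 were at least 2-fold higher in untreated SNU-398 than with empty vector and 0 lower. Of all symbols 23.7% were higher and 21.4% lower, so only the share that was higher lay near the background. The median log2 ratio of the list was 0.84, against 0.07 for all symbols. KMT2A, the methyltransferase that maintains HOX expression, was at 36.7 against 4.84 FPKM and KMT2B at 13.8 against 1.02 FPKM. KDM6B, a demethylase of the polycomb mark, was at 8.29 against 0.44 FPKM. It reached 1 FPKM only in SNU-398, so it had to be higher there. After knockdown 1 of 21 was at least 2-fold lower, beside 8.13% of all symbols: HCFC1 (15.5 against 35.5 FPKM). KMT2A was at 34.5 FPKM. MLLT3, a partner of DOT1L, was lower with both SALL4A (0.91 against 4.32 FPKM, -1.48) and SALL4B (1.19 FPKM, -1.28). It was the only one of 20 to pass 2-fold with either isoform. That is near the 3.24% of all symbols lower with SALL4A and 4.86% with SALL4B. With SALL4A it was under 1 FPKM, so it had to be lower there.

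Of 21 polycomb genes tested, 6 were at least 2-fold higher in untreated SNU-398 and 2 lower, beside 23.7% and 21.4% of all symbols, so the share that was higher lay near the background. PCGF2 was at 24.3 against 3.42 FPKM and CBX2 at 19.2 against 5.44 FPKM, while RBBP7, the gene with the highest level of the list in SNU-387, was at 49.5 against 120 FPKM. EZH2, the methyltransferase of the polycomb mark, was at 45.1 and 47.1 FPKM in the controls of the 2 lines and at 57.7 and 68.4 FPKM with SALL4A and SALL4B. After knockdown 2 of 21 were at least 2-fold higher, among them EZH1 (13.99 against 6.33 FPKM), and 0 lower, beside 9.73% and 8.13% of all symbols. With SALL4B, CBX8 was at 18.7 against 6.71 FPKM (1.36) and PHC1 at 2.36 against 6.45 FPKM (-1.15).

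Among the cofactor, chromatin and retinoic acid genes, the largest ratio after knockdown was in the retinoic acid list. RARB, a receptor that is itself a classic retinoic acid target, was at 16.2 FPKM in untreated cells against 63.6 FPKM with the knockdown (1.91). It was the only one of 11 at least 2-fold higher, while 4 were at least 2-fold lower: CRABP1 (0.618 against 3.93 FPKM, -1.61), the retinoic acid degrading enzyme CYP26B1 (0.441 against 3.29 FPKM, -1.57), RARG (8.56 against 21.4 FPKM, -1.23) and RXRA (2.98 against 7.03 FPKM, -1.01). Of all symbols 9.73% were higher and 8.13% lower, so 1 of 11 higher is near the background. The median of the list was -0.68, against -0.01 for all symbols. CRABP1 and CYP26B1 reached 1 FPKM only in the untreated library, so they had to be lower. CRABP2 (2.30 against 0.965 FPKM) reached it only after knockdown and had to be higher. The counts and the median of the list thus rest partly on the filter. ALDH1A1, which makes retinoic acid and had the highest level of the list, was at 107.05 against 172.7 FPKM. In SNU-387 no gene of the list reached 2-fold against empty vector. Of all symbols 2.27% were higher and 3.24% lower with SALL4A, and 3.13% and 4.86% with SALL4B. RARB stayed at 0.39 to 0.63 FPKM in SNU-387.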

How the data were processed

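The authors deposited 1 FPKM value per gene and library. TopHat2, SAMtools, Cufflinks and Cuffdiff and the builds GRCh38 and hg38 are named per the submitters' processing notes, without versions; no source used here names the annotation. Rows named by a dash (17 of 26032) were dropped and rows sharing a symbol summed. Ratios were log2 of (FPKM + 1) for symbols that reached 1 FPKM in either library, called at 2-fold. With 1 library per group no p-value was computed. Depth was estimated from 1894 symbols with a single GENCODE 29 transcript, as the commonest lowest step. Counting intervals (95%) used fragments estimated from depth and median coding transcript length, and cover counting error only. They were exact binomial for folds and exact Poisson for levels. Every HOX gene at 1 FPKM in any library was named with its values, and of each related list the genes past 2-fold, largest first, with those of highest level; a few of these are not reported here. The members and lists were chosen with earlier results of these data known. The functions were tested on simulated data. The software was scipy 1.17.1, pandas 2.3.3 and numpy 2.4.6 under Python 3.11.15, with plots by matplotlib 3.10.9.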

Additional observations from a re-analysis of the deposited data

How the results depend on the processing

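No paired analysis was possible because each group held 1 library. A pseudocount of 0.1 gave 1 HOX gene higher with SALL4A, 5 higher in SALL4A over SALL4B and 5 lower after knockdown, and medians of -2.24 (SALL4B), 1.89 (SALL4A over SALL4B) and 4.75 (between lines). One of 0.5 gave 1 and 5 higher in the first 2 and medians of -1.59, 1.57 and 3.17. Without a filter the medians were -0.0351 (SALL4A), -0.14 (SALL4B), 0.11 (SALL4A over SALL4B) and 2.32 (lines), and 24, 21 and 10 HOX genes were above 0 in the SNU-387 libraries with empty vector, SALL4A and SALL4B. At 0.5 FPKM, 1 gene was counted with SALL4B. At 2 FPKM, 2 each were counted with empty vector and SALL4A, and medians were -0.00939 (SALL4A) and 1.35 (SALL4A over SALL4B). A common total gave 0 HOX genes higher, 8 lower and a median of -0.63 after knockdown, and 3.01 between lines. With 1 FPKM required in both libraries, chosen after seeing the data, the counts were 0 lower with SALL4B, 0 higher in SALL4A over SALL4B and 4 higher between lines, since 0, 0 and 4 genes were left. No median could then be had for the first 2. The correlation with position stayed between -0.82 and -0.70 over 14 alternatives, added after seeing the data, which also left out each cluster in turn. Of all symbols called between SALL4A and SALL4B, 53.0% were higher as deposited, 64.2% with a common total and 72.9% without small RNAs; between lines these were 52.6%, 68.8% and 65.6%. The other 187 values of counts, medians and correlations kept within the limits set (1.5 times, 0.25 in log2, 0.1 in r), and no gene past 2-fold took the other sign. Depth limits the SNU-387 values under 1 FPKM most.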

Other observations

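Of 22 genes flanking the 4 clusters, 0 were at least 2-fold higher in untreated SNU-398 than with empty vector and 7 were lower, beside 23.7% and 21.4% of all symbols, with a median log2 ratio of -0.47. HIBADH, beyond HOXA13 and EVX1, was at 13.7 against 37.0 FPKM, and SKAP2, beyond the other end of HOXA, at 12.5 against 7.07 FPKM. CALCOCO1, near HOXC, was at 8.45 against 32.1 FPKM, while SMUG1, on the same side as HOXC4, was at 17.6 against 11.1 FPKM. MTX2, beyond HOXD1, was at 40.3 against 41.8 FPKM. CBX5, a heterochromatin protein gene near HOXC, was at 31.3 FPKM in untreated cells against 11.4 FPKM with the knockdown (-1.38).

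The listed ParaHox, EVX and related genes were mostly under 1 FPKM in every library. EVX2, the gene beside HOXD13, was listed at 0 in all 5 libraries, and EVX1, beside HOXA13, in 4. In untreated SNU-398, 3 of the 11 listed genes were at 1 FPKM or more, where 51.4% of all symbols were. The 3 were GBX2 (5.76 FPKM), CDX2 (3.16 FPKM) and MNX1 (2.89 FPKM). These were at 10.7, 1.53 and 4.41 FPKM after knockdown and at most 0.0268 FPKM in SNU-387.

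Of 9 partners and regulators of HOX proteins, 3 were at least 2-fold higher and 2 lower in untreated SNU-398 than with empty vector, near the 23.7% and 21.4% of all symbols. The acetyltransferase genes EP300 (50.6 against 5.53 FPKM) and CREBBP (30.5 against 6.68 FPKM) were among the higher. CREBBP was at 12.8 FPKM after knockdown (-1.19). MAF was the reverse, with 13.7 FPKM in the empty vector library against 0.0259 FPKM.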
